A study of Mus musculus with 6 samples.

Results

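The mouse mitochondrial genome holds 13 protein-coding genes, called messengers here. All of them were counted in cultured neurons with and without Tlr7, a Toll-like receptor that senses single-stranded RNA in endosomes. They were chosen as the rows placed on chromosome MT, which numbered 13 of the 25814 genes in the count table. All 13 had the position and identifier given by GENCODE M21, which annotates 37 mitochondrial genes: 13 messenger, 2 ribosomal and 22 transfer RNA genes. The count table lists the messengers alone, and values for ribosomal and transfer RNAs come from a second table of the authors.

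The cells were primary cultures of mixed cortical and hippocampal neurons from mice on a C57BL/6 background, collected on day 18 in vitro. There were 3 wild-type (WT) and 3 Tlr7-/- libraries, made from Trizol-extracted total RNA with a TruSeq Stranded mRNA kit and read on a NextSeq500. Tlr7-/- replicate 1 has a library name in the style of the WT libraries, whereas Tlr7-/- replicates 2 and 3 are named in another style. What the naming stands for is not given in the sources used here, and within Tlr7-/- replicates 2 and 3 it cannot be told apart from genotype. Whether replicates are separate cultures or animals is not stated in the labels. The p-values therefore reflect library-to-library spread alone, which may be technical.

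Libraries held 23272450 to 25696625 counts. Tlr7 itself had 4, 8 and 4 counts in the WT libraries and 3, 5 and 5 in those labelled Tlr7-/-, so the ranges overlapped and these counts do not check the genotype labels. Neuronal markers (8 of 8 detected in every library) summed to 5582 to 5793 CPM, counts scaled to library size, in WT and 5815 to 6183 in Tlr7-/- libraries. Single neuronal markers went both ways within that sum. In Tlr7-/- replicates 2 and 3 Tubb3 was at 343 and 469 CPM (WT 778 to 849) and Slc17a7 at 743 and 757 CPM (WT 1003 to 1047). Map2 was at 1464 and 1468 CPM there (WT 962 to 1035) and Snap25 at 897 and 882 CPM (WT 624 to 679). Astrocyte markers (5 genes) summed to 2454 to 2703 CPM in WT and to 1915, 2608 and 2343 CPM in Tlr7-/- replicates 1 to 3. Single astrocyte markers also went both ways. Gfap was at 549 CPM in Tlr7-/- replicate 1 (WT 1061 to 1247), and Aqp4 at 259 and 263 CPM in replicates 2 and 3 (WT 151 to 187). Oligodendrocyte lineage markers (5 genes, with Mog at 0 in Tlr7-/- replicate 2) summed to 767 to 838 CPM in WT and to 641, 438 and 504 CPM in Tlr7-/- replicates 1 to 3. Microglial markers (5 genes, with Tmem119 at 0 in all but 1 library) summed to 0.515 to 1.87 CPM in WT and to 0.634, 6.29 and 5.11 CPM in Tlr7-/- replicates 1 to 3. Most of the sum in replicates 2 and 3 came from C1qa (3.71 and 2.62 CPM) and Cx3cr1 (1.77 and 1.88 CPM). P2ry12 was at 0.549 and 0.450 CPM there (WT 0.157 to 0.214), while Aif1 did not rise. Endothelial markers (3 genes) stayed between 1.80 and 2.61 CPM, and Cldn5 was at 0 in all but 1 library.

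Mitochondrial DNA is transcribed from each of its strands into long precursors, from which transfer RNAs are cut out to release the ribosomal and messenger RNAs in between. The messengers encode the core membrane subunits of the respiratory chain complexes I, III and IV and of ATP synthase. Neurons rely heavily on these complexes to make the ATP that drives ion pumps and synaptic transmission. Of the messengers, mt-Nd6 is the 1 encoded on the light strand, and the other 12 come from the heavy strand transcript.

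Pairs of these genes overlap on the DNA, and the sequences of the overlaps are shown because the results below turn on those pairs. They were read from the GENCODE M21 transcripts (GRCm38), are given 5′ to 3′, and have the overlap in capitals. The first pair, mt-Atp8 and mt-Atp6, shares 43 bases. The second pair, mt-Nd4l and mt-Nd4, shares 7 bases. How the authors' counting assigned a read across such an overlap is not given in the sources used here.
mt-Atp8 and mt-Atp6, MT:7912-7984, plus strand: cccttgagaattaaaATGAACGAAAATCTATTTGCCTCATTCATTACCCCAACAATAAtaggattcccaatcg
mt-Nd4l and mt-Nd4, MT:10147-10193, plus strand: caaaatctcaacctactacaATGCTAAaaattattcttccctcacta

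Another pair, mt-Nd5 and mt-Nd6, lies on opposite strands, and the ends of the genes share 14 base pairs. Each end is written on its own strand, with the shared bases in capitals.
mt-Nd5, MT:13532-13565, plus strand: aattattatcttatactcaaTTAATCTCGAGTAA
mt-Nd6, MT:13552-13585, minus strand: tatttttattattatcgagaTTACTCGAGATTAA

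Counts per length in WT neurons spanned 25.1-fold over the 12 heavy strand messengers, from mt-Co1 to mt-Atp8. They are given as CPM scaled by TMM, a scaling that balances most genes between libraries, and divided by gene length in kb (mean ± SD, n = 3). How far such values follow RNA amounts in short or overlapping genes was not tested. The 3 subunits of complex IV, cytochrome c oxidase, stood at the top. mt-Co1, its catalytic subunit, was at 8082 ± 397 CPM per kb. mt-Co3 was at 4462 ± 445 CPM per kb and mt-Co2, which receives electrons from cytochrome c, at 4205 ± 470 CPM per kb, and the WT ranges of mt-Co3 and mt-Co2 overlapped. mt-Cytb, the cytochrome b of complex III, followed at 2942 ± 436 CPM per kb, and mt-Atp6, the channel subunit of the ATP synthase proton path, at 2032 ± 277 CPM per kb.

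The complex I subunits were lower per length and ran into one another. In order, mt-Nd1 was at 1347 ± 201, mt-Nd4 at 1108 ± 174, mt-Nd5 at 974 ± 164, mt-Nd2 at 787 ± 192 and mt-Nd4l at 543 ± 89.1 CPM per kb, and each of these overlapped the range of its neighbour in the order. mt-Nd3 (329 ± 50.2 CPM per kb) and mt-Atp8, a small accessory subunit of ATP synthase (322 ± 57.5 CPM per kb), also overlapped. In the count table the light strand messenger mt-Nd6 was at 14.5 ± 1.01 CPM per kb, 22.1-fold below mt-Atp8, but the authors' deposited table puts mt-Nd6 67.6-fold higher, so its place in the order is uncertain.

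**Figure D1:**
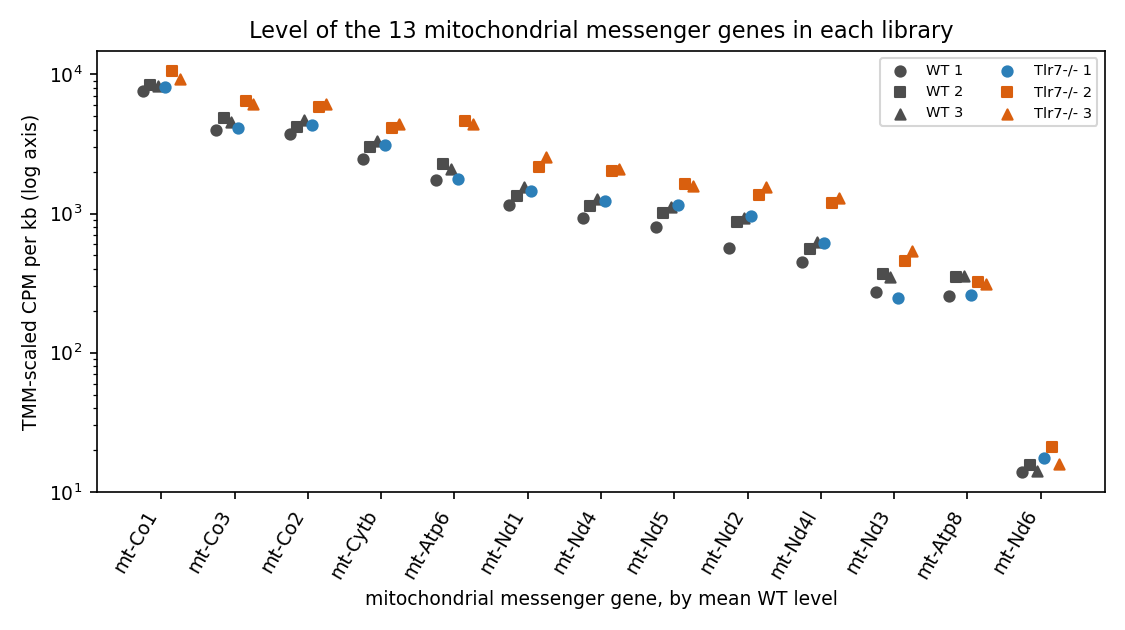
Level of each mitochondrial messenger in every library, as TMM-scaled CPM per kb of gene length on a log axis, with genes in the order of their mean WT level. Tlr7-/- replicates 2 and 3 (orange) sit above the other 4 libraries for 11 of 13 genes, and in this count table mt-Nd6 lies far below the rest.

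The first comparison asks whether neurons without Tlr7 carry more or less mitochondrial messenger RNA. The 13 messengers took 2.60%, 3.04% and 3.14% of all counts in the WT libraries, in replicate order, and 2.98%, 4.40% and 4.19% in those labelled Tlr7-/-. Replicate 1 lay inside the WT range, while replicates 2 and 3 lay above it. The means were 2.93% ± 0.285 in WT and 3.86% ± 0.767 in Tlr7-/- libraries (SD, n = 3), a log2 ratio of 0.40 (two-sided exact permutation test, p = 0.3, where 3 against 3 libraries cannot give less than 0.1). Against the WT mean, the share was 1.02-fold in replicate 1 and 1.47-fold in the mean of replicates 2 and 3. In these bulk cultures a change in the cells present and a change in RNA per cell cannot be told apart.

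Gene by gene, no member passed an adjusted p of 0.05 between 3 Tlr7-/- and 3 WT libraries (edgeR quasi-likelihood test, Benjamini-Hochberg adjustment over 13947 genes, background 0% called). Their median log2 fold change was 0.41, against 0.0014 for all genes tested. Adjusted p-values ran from 0.122 for mt-Nd5 to 0.641 for mt-Atp8. Without adjustment 8 members had p under 0.05, each with a higher Tlr7-/- mean, and 15.6% of all genes did so in that direction. DESeq2 called 5 members higher (mt-Nd4l, mt-Nd2, mt-Nd4, mt-Nd1 and mt-Nd5), beside 8.80% of the genes it tested, and edgeR's exact test called 4 of these, all but mt-Nd1, beside 4.67%, while limma-voom called 0.
In 3 members every Tlr7-/- library was above every WT library, namely mt-Nd2, mt-Nd5 and mt-Nd6, and 16.5% of all genes tested were so ordered.

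The Tlr7-/- libraries were therefore also compared with WT by naming style, in a fit of 3 groups over all 6 libraries. These comparisons share the WT libraries, so their values are set side by side. Tlr7-/- replicate 1 had 0 members called against WT (background 1.43% in either direction), 0 members with an unadjusted p under 0.05 (15.4% of all genes), and a median log2 fold change of 0.09. It was within the WT range in 9 members, above it in 3 and below it in 1. The share of all genes in each of these places was not worked out, so no result is read from this count. In Tlr7-/- replicates 2 and 3, 11 of 13 members were higher than in WT, where 24.4% of all genes were called higher and 49.6% were called in either direction, and none of the 13 was lower. The median log2 fold change of the members was 0.59, against -0.002 over all genes tested. Both replicates were above the other 4 libraries in those 11 members, an order that 29.9% of all genes showed.

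**Figure D2:**
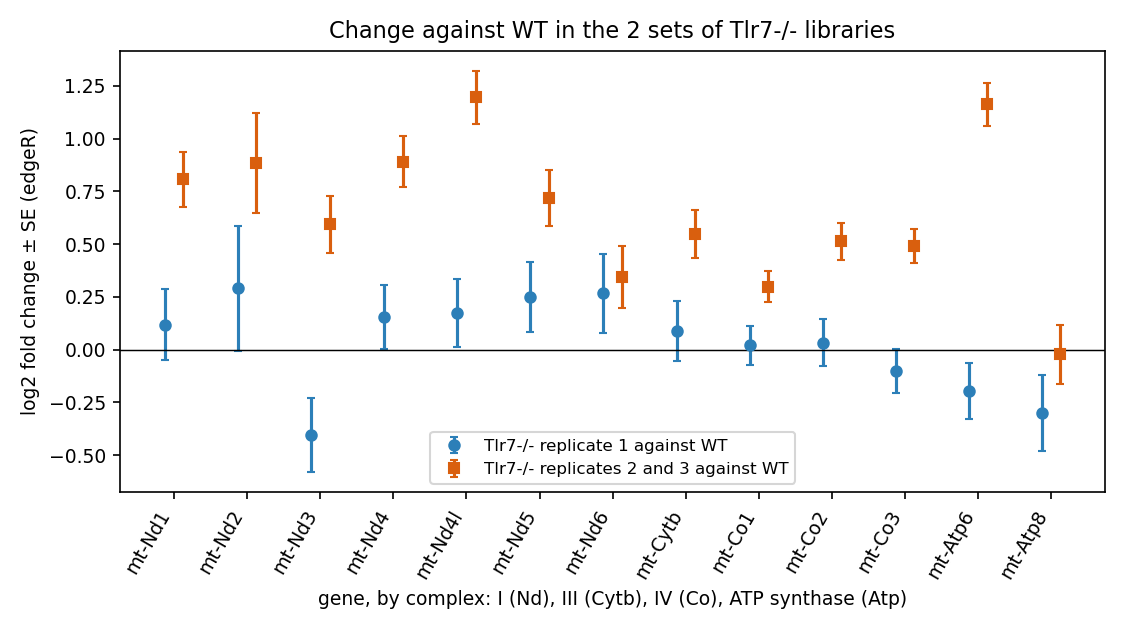
Log2 fold change against WT, with its standard error, of each mitochondrial messenger in Tlr7-/- replicate 1 (blue circles) and in Tlr7-/- replicates 2 and 3 (orange squares), from 1 edgeR fit. Orange values run from -0.02 for mt-Atp8 to 1.20 for mt-Nd4l, and blue values from -0.40 for mt-Nd3 to 0.29 for mt-Nd2, none of them past the threshold.

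Complex I, NADH dehydrogenase, takes 7 of the 13 messengers. mt-Nd4l, a small subunit of its proton-pumping membrane arm, was at 133, 166 and 185 TMM-scaled CPM in WT and at 182, 355 and 383 CPM in Tlr7-/- replicates 1 to 3. The first Tlr7-/- value fell between WT values and the others were above all of them. The log2 fold change against WT was 0.17 ± 0.16 in replicate 1 (SE, by edgeR, adjusted p = 0.677) and 1.20 ± 0.13 in replicates 2 and 3 (by edgeR, adjusted p = 0.000273), the largest of the 13.

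Its overlapping neighbour mt-Nd4, which encodes a proton-pumping subunit of the same arm, was at 1272, 1561 and 1748 CPM in WT and at 1698, 2784 and 2882 CPM in Tlr7-/- replicates 1 to 3. The pattern over libraries was that of mt-Nd4l at a smaller size, with log2 fold changes of 0.15 ± 0.15 in replicate 1 and 0.89 ± 0.12 in replicates 2 and 3 (SE, by edgeR, adjusted p = 0.00072).

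mt-Nd2, another membrane-arm subunit, was at 590, 898 and 963 CPM in WT and at 999, 1413 and 1599 CPM in Tlr7-/- replicates 1 to 3, so the groups did not overlap. WT replicate 1 lay well below the other WT libraries. Its log2 fold change was 0.88 ± 0.24 in replicates 2 and 3 (SE, by edgeR, adjusted p = 0.0377), and the call was lost when WT replicate 2, Tlr7-/- replicate 2 or Tlr7-/- replicate 3 was left out (adjusted p = 0.0736, 0.124 and 0.170), or when no filter on low counts was used (adjusted p = 0.0888).

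mt-Nd5, the largest mitochondrial subunit of complex I, was at 1453, 1840 and 2040 CPM in WT and at 2111, 2977 and 2871 CPM in Tlr7-/- replicates 1 to 3, again without overlap. Its log2 fold change in replicates 2 and 3 was 0.72 ± 0.13 (SE, by edgeR, adjusted p = 0.00413), and adjusted p was 0.0644 without Tlr7-/- replicate 2 and 0.0533 without Tlr7-/- replicate 3. mt-Nd1, which helps form the site where ubiquinone enters the complex, was at 1101, 1280 and 1486 CPM in WT and at 1398, 2058 and 2453 CPM in Tlr7-/- replicates 1 to 3. Only replicates 2 and 3 were above the WT range, with a log2 fold change of 0.81 ± 0.13 (SE, by edgeR, adjusted p = 0.0025).

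mt-Nd3 was the member in which replicate 1 lay below the WT range. It was at 94.8, 128 and 122 CPM in WT and at 86.6, 158 and 187 CPM in Tlr7-/- replicates 1 to 3. The log2 fold change was -0.40 ± 0.18 in replicate 1 (SE, by edgeR, adjusted p = 0.34) and 0.59 ± 0.13 in replicates 2 and 3 (SE, by edgeR, adjusted p = 0.00904), and without Tlr7-/- replicate 3 the latter was 0.47 with an adjusted p of 0.0787.

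mt-Nd6, the light strand subunit, was at 7.20, 8.15 and 7.29 CPM in WT and at 9.07, 10.9 and 8.26 CPM in Tlr7-/- replicates 1 to 3. These levels rest on 179 to 258 counts per library. The Tlr7-/- libraries were all above the WT libraries, by a narrow margin in replicate 3, and neither comparison passed (log2 fold change 0.27 ± 0.19 in replicate 1 and 0.34 ± 0.15 in replicates 2 and 3, SE, by edgeR, adjusted p = 0.54 and 0.0813). Without Tlr7-/- replicate 3 the latter was 0.53 with an adjusted p of 0.0259.

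In complex III, mt-Cytb was at 2840, 3424 and 3832 CPM in WT and at 3578, 4757 and 5081 CPM in Tlr7-/- replicates 1 to 3. Replicates 2 and 3 were above the other 4 libraries, with a log2 fold change of 0.55 ± 0.11 (SE, by edgeR, adjusted p = 0.00492). The adjusted p was 0.0544 without Tlr7-/- replicate 2 and 0.0809 without Tlr7-/- replicate 3.

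The complex IV subunits had log2 fold changes of 0.30 to 0.51 in replicates 2 and 3. mt-Co1 was at 11779, 12886 and 12794 CPM in WT and at 12660, 16418 and 14290 CPM in Tlr7-/- replicates 1 to 3, and its log2 fold change in replicates 2 and 3 was 0.30 ± 0.07 (SE, by edgeR, adjusted p = 0.00764). mt-Co2 was at 2566, 2855 and 3208 CPM in WT and at 2944, 4007 and 4204 CPM in Tlr7-/- replicates 1 to 3 (0.51 ± 0.09 in replicates 2 and 3, SE, by edgeR, adjusted p = 0.00124). mt-Co3 was at 3111, 3789 and 3595 CPM in WT and at 3257, 5046 and 4794 CPM in Tlr7-/- replicates 1 to 3 (0.49 ± 0.08 in replicates 2 and 3, SE, by edgeR, adjusted p = 0.000996). In all 3 genes replicate 1 was among the WT values.

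Counts of the ATP synthase genes went apart. mt-Atp6 was at 1178, 1548 and 1424 CPM in WT and at 1208, 3173 and 3024 CPM in Tlr7-/- replicates 1 to 3. Replicate 1 was near the lowest WT library, while replicates 2 and 3 were above every other library, with a log2 fold change of 1.16 ± 0.10 (SE, by edgeR, adjusted p = 6.57e-05). mt-Atp8, read from the same heavy strand transcript and overlapping mt-Atp6 by the 43 bases shown above, was at 52.2, 72.0 and 72.9 CPM in WT and at 53.4, 65.8 and 63.4 CPM in Tlr7-/- replicates 1 to 3. All 3 Tlr7-/- values were inside the WT range (-0.02 ± 0.14 in replicates 2 and 3, SE, by edgeR, adjusted p = 0.906).

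Tlr7-/- replicates 2 and 3 were also tested against Tlr7-/- replicate 1, a single library that is assumed to vary like the libraries of the other groups. Here 7 of 13 members were called higher and 0 lower, where 15% of all genes were called higher, 16.6% lower and 31.6% in either direction. They were mt-Atp6, mt-Nd4l, mt-Nd3, mt-Nd4, mt-Nd1, mt-Co3 and mt-Co2. For mt-Atp6 the difference between libraries of the same genotype label was 1.36 ± 0.15 on the log2 scale (SE, by edgeR, adjusted p = 0.000538), beside 1.16 ± 0.10 against WT. The calls of mt-Nd4 and mt-Nd1 were lost without Tlr7-/- replicate 2 or 3, and that of mt-Co2 without Tlr7-/- replicate 3 (adjusted p from 0.0557 to 0.123). For mt-Nd1 the adjusted p was 0.0521 without WT replicate 2 and 0.0633 with no filter on low counts. Oligodendrocyte and microglial marker sums and single neuronal and astrocyte markers also differed in replicates 2 and 3 in the values given above. The oligodendrocyte sum was below the WT range in replicate 1 too. The part of these markers in the result was not tested.

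Trends with GC content and transcript length were then removed from every library. The median log2 fold change in replicates 2 and 3 fell from 0.59 to 0.41. Then 8 members were higher than WT, where 15.5% of all genes were called higher and 17.1% lower. A single member, mt-Atp8, was lower (-0.37 ± 0.07, SE, by edgeR, adjusted p = 0.00501), while mt-Nd2, mt-Nd3 and mt-Co1 were no longer called. mt-Nd4l, at 41.1% GC the most GC-rich of the 13, went up to 1.497 ± 0.08, and mt-Atp6 came to 0.89 ± 0.06 (SE). Against replicate 1 the median fell from 0.59 to 0.25 and 5 members were still called, all higher, beside 7.36% of all genes higher and 11.4% lower. There mt-Nd4 came to 0.25 (by edgeR, adjusted p = 0.224) and mt-Nd1 to 0.41 (by edgeR, adjusted p = 0.186), and neither was called.

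Because the heavy strand messengers arise from a common precursor, each member's share of the mitochondrial messenger counts was compared next. This quantity does not depend on the scaling to nuclear genes. mt-Co1 supplied the most counts, 45.0%, 42.3% and 40.6% in WT and 41.9%, 38.0% and 34.2% in Tlr7-/- replicates 1 to 3. In 4 members, mt-Nd2, mt-Nd4l, mt-Nd4 and mt-Nd5, the share in every Tlr7-/- library was above that in every WT library, and in 1, mt-Atp8, it was below. Each of these 5 had the smallest p that this design can give, 0.1 (two-sided exact permutation test, 0.25 after adjustment over 20 measures), so none passed.

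By complex, complex I took 17.8%, 19.3% and 20.8% of mitochondrial messenger counts in WT and 21.5%, 22.6% and 24.8% in Tlr7-/- replicates 1 to 3, with no overlap (exact permutation p = 0.1). Complex IV took 66.7%, 64.1% and 62.3% in WT and 62.5%, 58.9% and 55.7% in Tlr7-/- libraries, and the groups overlapped through replicate 1 (exact permutation p = 0.2). Complex III stayed at 10.8% to 12.2% in every library (exact permutation p = 0.8). ATP synthase took 4.70%, 5.32% and 4.76% in WT and 4.18%, 7.49% and 7.38% in Tlr7-/- replicates 1 to 3 (exact permutation p = 0.4), nearly all of it mt-Atp6.

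**Figure D3:**
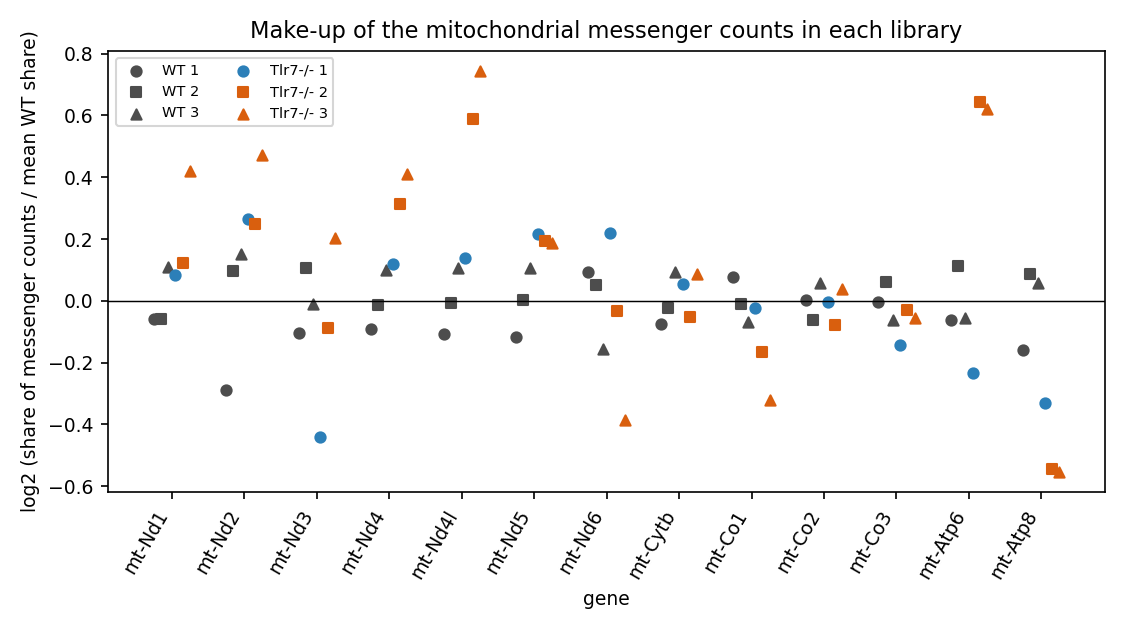
Share of the mitochondrial messenger counts held by each gene in every library, as the log2 ratio to the mean WT share. mt-Nd4l and mt-Atp6 stand highest in Tlr7-/- replicates 2 and 3 (orange) and mt-Atp8 lowest, while mt-Cytb and mt-Co2 keep close to 0 in all 6 libraries.

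The overlapping pairs were then compared as ratios, which were added after the values were seen. Whether the genes of a pair were counted from shared or separate RNA molecules was not tested. Per base of gene length, the mean WT ratio was 6.35 for mt-Atp6 to mt-Atp8 and 0.490 for mt-Nd4l to mt-Nd4. mt-Atp6 had 22.6, 21.5 and 19.5 counts per count of mt-Atp8 in WT and 22.6, 48.2 and 47.7 in Tlr7-/- replicates 1 to 3. Replicate 1 was level with the highest WT library, and replicates 2 and 3 were 2.26-fold the WT mean on average (two-sided exact permutation p = 0.1 for 3 against 3, the smallest it can give). mt-Nd4l had 0.104, 0.106 and 0.106 counts per count of mt-Nd4 in WT and 0.107, 0.128 and 0.133 in Tlr7-/- replicates 1 to 3, so the ratio was nearly constant in 4 libraries and 1.23-fold the WT mean in replicates 2 and 3 (exact permutation p = 0.1). mt-Nd6 had 2.75, 2.68 and 2.32 counts per 10000 heavy strand counts in WT and 3.01, 2.52 and 1.98 in Tlr7-/- replicates 1 to 3 (exact permutation p = 0.8), with the groups overlapping.

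**Figure D4:**
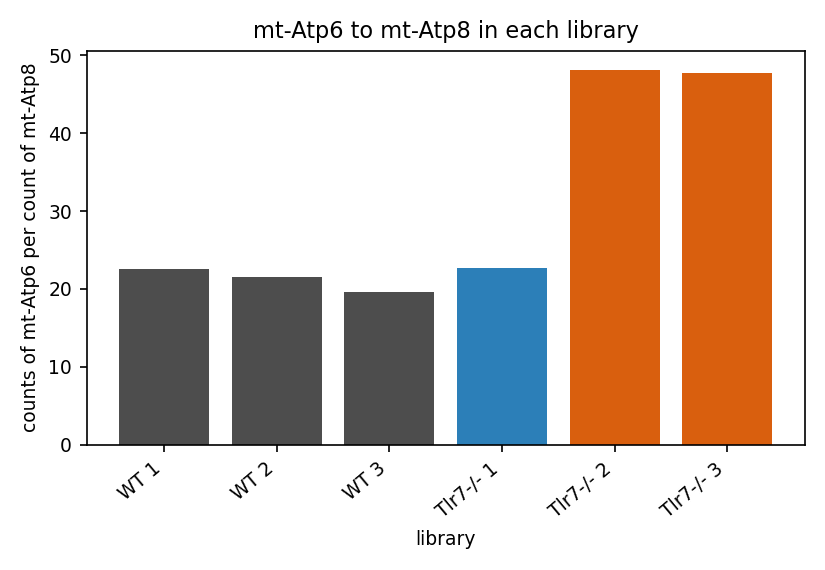
Counts of mt-Atp6 per count of mt-Atp8 in each library. The 3 WT libraries and Tlr7-/- replicate 1 stand between 19.5 and 22.6, and Tlr7-/- replicates 2 and 3 at 48.2 and 47.7.

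Some of these genes have near-identical copies in the nuclear genome, old insertions of mitochondrial DNA. In GENCODE M21 transcripts, 12 nuclear genes shared at least one 75-base window, a read length, with a member. Of these, 7 lie side by side on chromosome 1, at chr1:24611535-24616197 on the minus strand (GRCm38). The share of a member's windows also found in a nuclear transcript was 99.5% in mt-Co2, 99.5% in mt-Atp6, 99.9% in mt-Co3, 97.8% in mt-Nd3 and 98.7% in mt-Nd4l. It was 61.5% in mt-Nd4, 39.8% in mt-Co1, 5.71% in mt-Nd2, 1.66% in mt-Nd5 and 0% in mt-Nd1, mt-Nd6, mt-Cytb and mt-Atp8.

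A stretch of mt-Atp6 and its copy Gm10925 shows how such reads look: the sequences, each 1 read long, are identical and carry no capitals because no base differs.
mt-Atp6, MT:8227-8301, plus strand: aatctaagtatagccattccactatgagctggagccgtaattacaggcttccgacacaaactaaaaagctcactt
Gm10925, chr1:24614277-24614351, minus strand: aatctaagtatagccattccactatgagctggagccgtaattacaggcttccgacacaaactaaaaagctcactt

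mt-Nd3 and its copy Gm28438 differ at 1 of the 345 bases compared, T3C, with positions counted from 1 at the 5′ end of mt-Nd3. The starts of the genes are shown, with the differing base in capitals.
mt-Nd3, MT:9459-9491, plus strand: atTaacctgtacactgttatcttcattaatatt
Gm28438, chr1:24613087-24613119, minus strand: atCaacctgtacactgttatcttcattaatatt

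The deposited tables differed at these genes. The count table lists none of the 12 copies, and how either table treated reads that match more than one place is not given in the sources used here. The authors' deposited edgeR table lists 11 of them, the highest (Gm13341) at 7.85 CPM, and the smallest false discovery rate among them was 0.589. In the authors' deposited table the 5 members with over 97% of windows shared were at 0.117 to 2.01 CPM, between 1111-fold (mt-Nd3) and 6763-fold (mt-Co3) below the count table. mt-Co1 and mt-Nd4, with part of their windows shared, were 2.27-fold and 1.39-fold lower in the authors' deposited table. mt-Nd1, mt-Nd2, mt-Nd5 and mt-Cytb were within 0.08 to 0.11 of the count table on the log2 scale. Of 13783 genes tested here and listed in both tables, 13771 were nuclear. Over these nuclear genes the median difference was 0.13 on the log2 scale, and 118 of them differed by more than 4.

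mt-Nd6 differed in the other direction. It was at 573 CPM in the authors' deposited table and at 8.48 CPM in the count table, a 67.6-fold difference. No nuclear transcript shares a 75-base window with it, and it lies opposite the heavy strand transcript over its whole length. Whether either table was counted by strand is not given in the sources used here, so the level of mt-Nd6 is uncertain between these values.

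**Figure D5:**
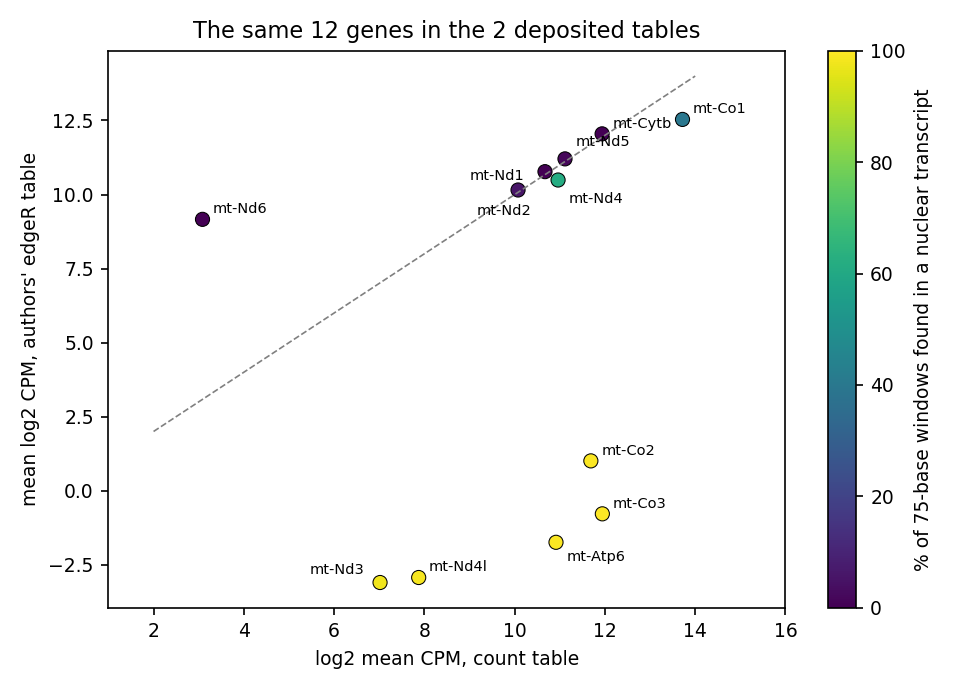
Log2 mean CPM of 12 mitochondrial messengers in the count table and mean log2 CPM in the authors' edgeR table, coloured by the percent of 75-base windows found in a nuclear transcript; the dashed line marks equal values. The 5 genes with over 97% shared windows lie at or below 2.01 CPM in the authors' table, and mt-Nd6 is the 1 gene far above the line.

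The authors' own comparison of Tlr7-/- with WT gave 6 heavy strand messengers, those above 100 CPM, log2 fold changes from 0.28 (mt-Co1) to 0.66 (mt-Nd2) in the authors' deposited table, and 0.62 for mt-Nd6. The other heavy strand messengers there, all at or below 2.01 CPM, had log2 fold changes of 0.06 (mt-Co2), 0.83 (mt-Atp6), 1.00 (mt-Co3), -3.57 (mt-Nd3) and -0.92 (mt-Nd4l) in the authors' deposited table. None of the messengers there had a false discovery rate under 0.05, and the smallest was 0.0637 for mt-Nd2. That threshold was met by 465 of 27420 genes, or 1.7%. mt-Atp8 is not among the values of the authors' deposited table used here.

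Ribosomal RNA was measured in the authors' deposited table alone, with no value per library. The libraries were made with an mRNA kit. How fully it captured ribosomal RNA, transfer RNA and mt-Nd6 was not tested, so their CPM are not amounts to set against the other messengers. mt-Rnr1, the RNA of the small mitochondrial ribosomal subunit, had a mean of 918 CPM and a log2 fold change of 0.12 (false discovery rate 0.839) in the authors' deposited table. mt-Rnr2, that of the large subunit, had 1122 CPM and a log2 fold change of 0.20 (false discovery rate 0.579) there.

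Of the 22 transfer RNA genes, 4 appeared in the authors' deposited table: mt-Tm, mt-Tn, mt-Tc and mt-Tp, 3 of them on the light strand. mt-Tc, for cysteine, was at 3.37 CPM with a log2 fold change of 2.16 (false discovery rate 0.0445) in the authors' deposited table. It was the only mitochondrial gene under 0.05 there. Like mt-Nd6 it lies on the light strand, and whether that table was counted by strand is not given. The strand its reads came from is therefore not known. mt-Tp, for proline, was at 7.16 CPM with a log2 fold change of 0.28 (false discovery rate 0.642) in the authors' deposited table, and mt-Tm and mt-Tn were at 0.109 CPM each, near that table's floor. Transfer RNAs are shorter than or about as long as a read of 75 bases, and the sequence of mt-Tc, 66 bases in all, is shown for that reason.
mt-Tc, MT:5192-5257, minus strand: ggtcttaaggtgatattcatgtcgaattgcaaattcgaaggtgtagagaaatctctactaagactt

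The nuclear genes that transcribe, process and translate these RNAs were examined as 6 lists. None had a member called between 3 Tlr7-/- and 3 WT libraries, and in replicate 1 alone none was called either. Unadjusted edgeR p-values under 0.05 between the genotypes were met by 1 of 15 transcription and replication factors, 6 of 28 processing factors, 2 of 6 stability factors, 3 of 11 translation factors, 1 of 5 regulators of mitochondrial number and 36 of 78 mitochondrial ribosomal proteins, where 28.2% of all genes met it. In replicate 1 they were met by 1 stability factor, 5 ribosomal proteins and 0 of the other lists, where 15.4% of all genes met it. In replicates 2 and 3, where 24.4% of all genes were called higher and 25.2% lower than WT, transcription and replication factors had 2 higher and 2 lower of 15. Tfb2m, which melts the promoter for the mitochondrial RNA polymerase, was at 0.46 ± 0.13 (log2 fold change ± SE, by edgeR, adjusted p = 0.0165), and Polg, the mitochondrial DNA polymerase, at -0.22 ± 0.06 (by edgeR, adjusted p = 0.0189). Tfam, which packages mitochondrial DNA, did not pass (0.18 ± 0.08, by edgeR, adjusted p = 0.0782). Twnk did not pass either (0.26 ± 0.10, by edgeR, adjusted p = 0.054). With GC content and length trends removed, Polg (-0.36, by edgeR, adjusted p = 0.002) and Twnk (0.38, by edgeR, adjusted p = 0.0145) passed. Tfb2m then did not (0.32, by edgeR, adjusted p = 0.0607).

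Of 28 processing and modification factors, 7 were higher and 6 lower in replicates 2 and 3. Mrm3, a methyltransferase of mitochondrial ribosomal RNA, fell by 0.43 on the log2 scale (by edgeR, adjusted p = 0.0133), and was at -0.09 (by edgeR, adjusted p = 0.574) with those trends removed. Of 6 stability and decay factors, 2 were higher and 1 lower. The lower one, Rexo2, was at -0.30 ± 0.09 in replicates 2 and 3 (SE, by edgeR, adjusted p = 0.019). It was at -0.27 with those trends removed (by edgeR, adjusted p = 0.0568). Lrpprc, which holds mitochondrial messengers stable and supports their polyadenylation, was at 70.5, 78.0 and 82.2 CPM in WT and at 83.4, 99.1 and 100.3 CPM in Tlr7-/- replicates 1 to 3, with a log2 fold change of 0.38 ± 0.07 in replicates 2 and 3 (SE, by edgeR, adjusted p = 0.00236). Pnpt1, a ribonuclease that degrades mitochondrial RNA, rose by 0.63 ± 0.15 (SE, by edgeR, adjusted p = 0.00737). With GC content and length trends removed, Lrpprc was at 0.24 (by edgeR, adjusted p = 0.0234) and Pnpt1 at 0.25 (by edgeR, adjusted p = 0.159).

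Of 11 translation factors, 1 was higher and 3 were lower in replicates 2 and 3. The initiation factor Mtif2 was at 0.50 ± 0.08 (log2 fold change ± SE, by edgeR, adjusted p = 0.000826) and the elongation factor Tsfm at -0.86 ± 0.11 (by edgeR, adjusted p = 0.0002). Tufm was at -0.39 (by edgeR, adjusted p = 0.00072). With GC content and length trends removed, Mtif2 was at 0.40 (by edgeR, adjusted p = 0.00369) and Tsfm at -0.57 (by edgeR, adjusted p = 0.0032). Tufm was then at -0.06 (by edgeR, adjusted p = 0.506). Of 5 regulators of mitochondrial number, 2 were higher and 1 lower. Ppargc1a, a coactivator of mitochondrial biogenesis, was at 0.47 ± 0.09 (by edgeR, adjusted p = 0.00243) and at 0.0064 once GC and length trends were removed. Its partner receptor Esrra was at -0.82 ± 0.10 (by edgeR, adjusted p = 0.000163), and at -0.69 with those trends removed (by edgeR, adjusted p = 0.00105).

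The nuclear-encoded proteins of the mitochondrial ribosome went the other way from the mitochondrial messengers in replicates 2 and 3. Of 78 such genes, 0 were higher and 53 lower than WT, where 24.4% of all genes were called higher and 25.2% lower. Their median log2 fold change was -0.34, or -0.21 with GC content and length trends removed. Mrps24, of the small subunit, was at 30.8, 31.2 and 29.9 CPM in WT and at 25.9, 16.3 and 17.7 CPM in Tlr7-/- replicates 1 to 3. Replicate 1 was below all WT libraries and replicates 2 and 3 were lower still, with a log2 fold change of -0.85 ± 0.08 in the latter (SE, by edgeR, adjusted p = 6.32e-05). With those trends removed, Mrps24 was at -0.40 in replicates 2 and 3 (by edgeR, adjusted p = 0.00549). Mrps7 was then at -0.21 (by edgeR, adjusted p = 0.0391) and Mrpl36 at -0.34 (by edgeR, adjusted p = 0.0191). In replicate 1 the median of the 78 was -0.10, with 0 called.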

How the data were processed

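Per the labels' protocols and design text, 6 libraries made from total RNA were sequenced with a 75 cycle kit. The submitters' processing notes give the build GRCm38.p6 and, without versions, bcl2fastq, HISAT2, featureCounts and edgeR. Which tool made which table is not given in the sources used here. The authors' table of genes gives, per the file headers, total counts, used as the main measurement, and RPKM, scaled by the authors to gene length and mapped reads, which served as an alternative. Another deposited table gives log2 fold changes, mean log2 CPM, p-value and FDR columns from edgeR, printed as the authors' values.

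Genes were filtered with filterByExpr (13947 of 25814 kept) and scaled by TMM. The two-sided quasi-likelihood test of edgeR 4.0.16 (robust glmQLFit, R 4.3.3) compared genotypes. Its p-values were adjusted by Benjamini-Hochberg across every tested gene and called under 0.05. A fit of 3 groups gave the contrasts by library naming style, with the spread pooled over all libraries. Standard errors came from the fold change and its test statistic. Shares and ratios were compared by exact permutation tests over libraries. GC content, length, positions and sequences came from GENCODE M21. Nuclear copies were found as GENCODE transcripts holding any 75-base window of a member, on either strand. GC and length trends were removed as natural splines with 5 degrees of freedom used as offsets.

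Alternatives were DESeq2 1.42.0, edgeR's exact test, limma 3.58.1 (voom, and log2(RPKM + 0.1, 0.5 or 1)), other scalings and filters, a replicate block, naming style as a covariate, and leaving libraries out. The procedure was tested on simulated data in which all Tlr7-/- libraries carried the same changes. That test does not cover libraries of the same genotype label that differ, as they do here. Members, lists and tests were chosen with earlier results of these data known. Every member was to be named, with up to 4 genes of each list by smallest p.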

Additional observations from a re-analysis of the deposited data

Results flagged for a closer look

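The Tlr7-/- libraries differed from one another in 7 of the 13 mitochondrial messengers, by an edgeR contrast of Tlr7-/- replicates 2 and 3 against Tlr7-/- replicate 1. In each the effect against WT therefore depended on which Tlr7-/- libraries were used. The log2 differences were 1.36 ± 0.15 in mt-Atp6 (SE, by edgeR, adjusted p = 0.000538), 1.02 ± 0.18 in mt-Nd4l (by edgeR, adjusted p = 0.00613), 1.00 ± 0.19 in mt-Nd3 (by edgeR, adjusted p = 0.00862) and 0.74 ± 0.17 in mt-Nd4 (by edgeR, adjusted p = 0.015). They were 0.69 ± 0.18 in mt-Nd1 (SE, by edgeR, adjusted p = 0.0307), 0.60 ± 0.11 in mt-Co3 (by edgeR, adjusted p = 0.00486) and 0.48 ± 0.12 in mt-Co2 (by edgeR, adjusted p = 0.0163). With GC content and length trends removed 5 of the 7 were called, without mt-Nd4 (0.25, by edgeR, adjusted p = 0.224) and mt-Nd1 (0.41, by edgeR, adjusted p = 0.186). Of all genes tested, 31.6% differed between these libraries. Replicate 1 is a single library here and is assumed to vary like the others.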

How the results depend on the processing

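Of 728 values of single members under an alternative, 655 kept direction and side of the threshold. Between 3 Tlr7-/- and 3 WT libraries, 0 members and 0 genes were called, against 5 and 1785 with DESeq2 and 4 and 1028 with edgeR's exact test. Genes called were 1 with no filter, 1 with GC and length trends removed, 200 with naming style as a covariate and 320 without Tlr7-/- replicates 2 and 3, a setting added after the data were seen. Leaving out 1 library gave 0 to 11 members and 0 to 6922 genes, the highest values without Tlr7-/- replicate 1. It gave 8 to 11 members in replicates 2 and 3 against WT, where 37.5% to 48.9% of all genes were called, and 5 to 10 against replicate 1, where 22.9% to 34.2% were. Where that leaves 1 library in an arm, it is assumed to vary like the others. Whether replicate numbers pair the libraries is not settled by the correlations of deviations, 0.241, -0.084 and 0.264 for replicates 1 to 3. A replicate block called 0 members and 0 genes, with a median of 0.40. Counts of uniquely mapped reads were not run, since no such column was used here.

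Directions turned in these values. Scaled to the mitochondrial sum, mt-Co2 was at -0.014, mt-Co3 at -0.0757, mt-Nd3 at -0.0838, mt-Nd6 at -0.0469 and mt-Co1 at -0.166. Naming style as a covariate repeats the contrast of Tlr7-/- replicate 1 with WT. There mt-Atp6 was at -0.195, mt-Co3 at -0.103 and mt-Nd3 at -0.404. Without Tlr7-/- replicates 2 and 3 these genes were at -0.199, -0.107 and -0.408. With GC and length trends removed, mt-Nd6 was at -0.0424 in replicates 2 and 3 against WT and at -0.361 against replicate 1, mt-Atp8 at -0.166 against replicate 1, and list medians at 0.0721 for processing (0.00106 with DESeq2 size factors) and 0.0107 for translation factors. Upper quartile scaling put mt-Co1 at -0.00251 in replicate 1. With 1 library left out, replicate 1 against WT ran from -0.0199 to 0.192 in the members' median, from -0.0199 to 0.192 in mt-Cytb, from -0.0423 to 0.119 in mt-Co2 and from -0.0205 to 0.0436 in mt-Co1. mt-Atp8 ran from -0.168 to 0.0581 in replicates 2 and 3 against WT, and mt-Nd6 from -0.132 to 0.263 against replicate 1. The log2 ratio of shares ran from -0.00494 to 0.0791 for complex III and from -0.199 to 0.0986 for mt-Nd6 to the heavy strand. The causes of these changes were not tested.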
